A study of Mus musculus with 6 samples.

Results

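The genes described here are 40 genes of DNA replication and cell division, taken by name from a table of 17832 genes measured in sorted mouse spleen cells. All 40 were found in the table. They fall into 17 replication genes, 21 mitosis genes and 2 transcription factors of the cell cycle, Foxm1 and Mybl2. The libraries come from CD8+ and CD4+ cells that were separated by flow cytometry from spleens of C57BL/6 mice, and every mouse had received angiotensin II, a peptide hormone that narrows vessels and raises pressure, through an osmotic pump under the skin. There were 3 CD8 libraries, numbered 389, 395 and 387, and 3 CD4 libraries, numbered 385, 393 and 395. The number 395 occurs once in each group, and the labels do not say whether a number marks a mouse. For the dose, the length of the treatment, the age of the mice and any further sort gates no value is given in the sources used here, and no library of untreated mice was used.

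A dividing cell copies its DNA in S phase and separates the copies in mitosis. Before S phase, origins are licensed when Cdc6 and Cdt1 load the ring of Mcm proteins that later unwinds the DNA, and E2F transcription factors switch on the genes for these proteins and for nucleotide supply. Later, a complex that contains the factors encoded by Mybl2 and Foxm1 switches on mitotic genes through a promoter element known as the CHR, often with CCAAT boxes nearby. In the spleen of the mouse, cells that divide include activated lymphocytes and also erythroid precursors, since the mouse spleen makes red cells in adult life.

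Values are normalised read counts, that is, reads per gene divided by 1 size factor per library, and the libraries held between 10264246 and 14628599 reads. The least covered value among the 40 genes rested on 158 reads. Coreceptor transcripts matched the label of each library: Cd8a had 3871, 10001 and 8108 in CD8 libraries, against 30.0, 36.8 and 7.45 in CD4 libraries. Cd4 had 38.9, 130.2 and 163 in CD8 libraries, against 4065, 6313 and 5402 in CD4 libraries. Transcripts of other spleen cells were present in all 6 libraries. The sum over 35 erythroid genes was 222667, 112814 and 120460 in CD8 libraries, against 160317, 70215 and 111998 in CD4 libraries, and the sum over 19 T cell genes was 20109, 64181 and 48743 in CD8 libraries, against 42841, 84018 and 68159.5 in CD4 libraries. Each gene of both lists had reads in each library. In bulk libraries such as these, fewer cells of a type and less RNA per cell cannot be told apart. Here and below, 3 CD8 values stand in the order 389, 395 and 387, and 3 CD4 values in the order 385, 393 and 395.

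The 40 genes had the same libraries at both ends of their range. Each of the 40 had its highest value in CD8 389 and its lowest value in CD4 393. Over the 13877 genes with a normalised count of 10 or more in at least 3 libraries, which are the genes tested, 30.4% had their highest value in CD8 389, 28.7% had their lowest value in CD4 393, and 19.7% had both. The ratio of the highest to the lowest library ran from 2.07 for Gins2 to 4.05 for Ccnb1, with a median of 2.97. Over all genes tested the median was 1.85 and the 90th percentile 5.08, above each of the 40. With CD8 389 left out, 32 of the 40 were highest in CD4 385, beside 24.1% of all genes tested. Of the other 8, Dut, Cdt1, Gins2, Ccnb2, Cdc25c and Nusap1 were highest in CD8 395, and Ccnb1 and Cenpf in CD4 395. The sums over the 40 genes were 185788, 95457 and 100445 in CD8 libraries, against 121748, 61252 and 97978 in CD4 libraries. The sums of CD8 395, CD8 387 and CD4 395 lay close together.

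**Figure D1:**
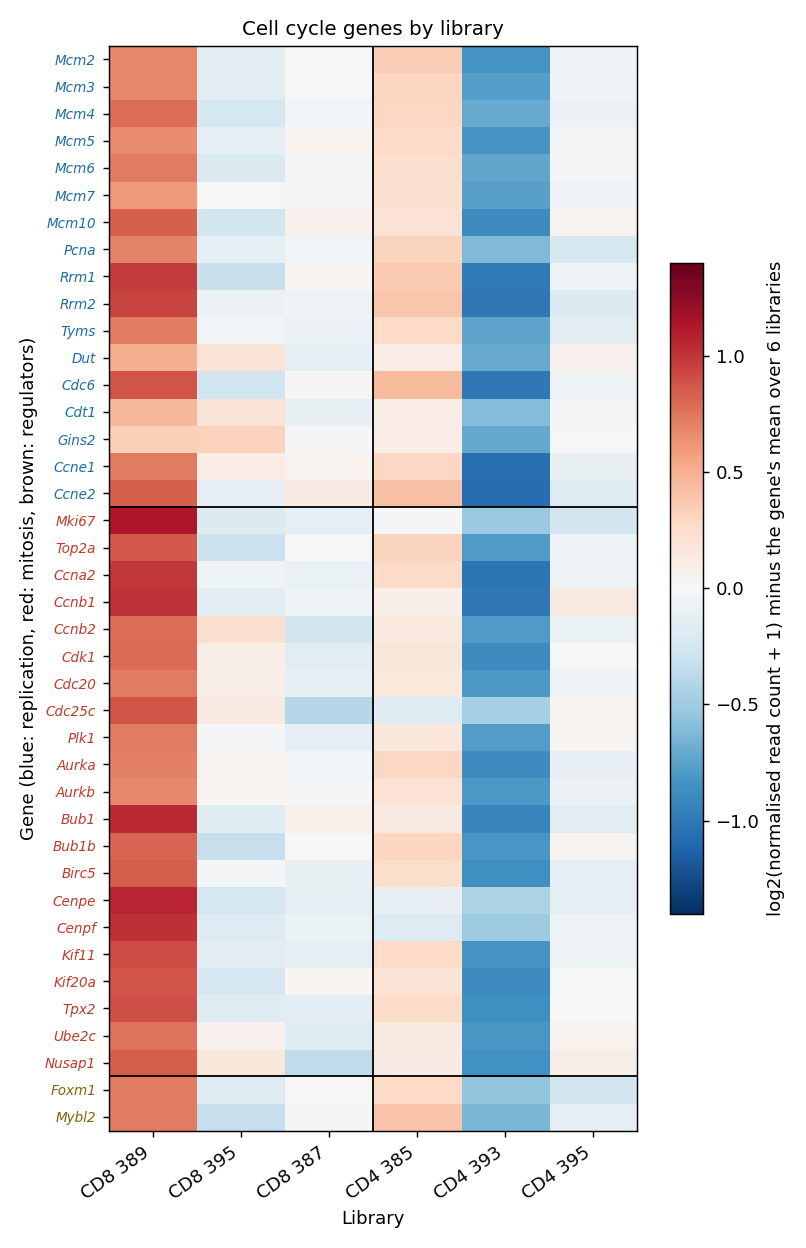
Heat map of the 40 genes (rows) in the 6 libraries (columns, CD8 left of CD4), coloured by log2(normalised read count + 1) minus the mean of the gene over the 6 libraries. All 40 rows are reddest in CD8 389 and bluest in CD4 393, and the other 4 libraries lie between them.

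Promoter sequences are shown for 8 of the genes because the replication and mitosis genes, which shared the order of libraries, differ in the elements before their starts. RefSeq promoter windows (build GRCm38.p6, 250 bases before to 50 after the start) matched 31 of the 40 genes by symbol. They were searched on both strands for 3 kinds of motif. E2F motifs were TTTGGCG with the forms TTTCGCG and also TTCCCGC, CHR elements were TTTGAA and also TTCGAA, and CCAAT boxes were the letters CCAAT. Matches may overlap each other, and a gene with more than 1 window counted when any window matched. The printed stretches are the 150 bases before the start, 5′ to 3′ on the strand of the gene, with each match in capitals. All 8 are examples that hold an E2F motif (replication genes) or a CHR element (mitosis genes). Genes without such a match, for example Pcna and Birc5, are not printed. The first 3 are from replication genes: Mcm6 at chr1:128359706-128359855 (minus strand), Rrm1 at chr7:102441545-102441694 (plus strand) and Cdc6 at chr11:98908001-98908150 (plus strand). In them the capitals mark E2F motifs, of which an overlapping pair stands first in Mcm6, and the CCAAT boxes of Mcm6 and Rrm1.
Mcm6: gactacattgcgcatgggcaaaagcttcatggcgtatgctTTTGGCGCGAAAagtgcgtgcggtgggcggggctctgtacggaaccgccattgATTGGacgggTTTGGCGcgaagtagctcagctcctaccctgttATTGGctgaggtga
Rrm1: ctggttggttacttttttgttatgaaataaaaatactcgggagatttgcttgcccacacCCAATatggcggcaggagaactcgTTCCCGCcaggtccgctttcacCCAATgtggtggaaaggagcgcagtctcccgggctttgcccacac
Cdc6: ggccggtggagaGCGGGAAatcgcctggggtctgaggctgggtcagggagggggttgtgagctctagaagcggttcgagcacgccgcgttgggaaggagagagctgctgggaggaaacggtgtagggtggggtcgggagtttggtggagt

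The next 5 are from mitosis genes: Mki67 at chr7:135716380-135716529 (minus strand), Top2a at chr11:99024190-99024339 (minus strand), Cdk1 at chr10:69352913-69353062 (minus strand), Cdc20 at chr4:118437344-118437493 (minus strand) and Kif11 at chr19:37376232-37376381 (plus strand). In these the capitals mark CHR elements and CCAAT boxes, and in Cdk1 also an E2F motif.
Mki67: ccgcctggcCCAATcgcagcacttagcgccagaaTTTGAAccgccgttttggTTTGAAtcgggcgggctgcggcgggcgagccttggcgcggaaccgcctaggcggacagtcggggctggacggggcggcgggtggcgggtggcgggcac
Top2a: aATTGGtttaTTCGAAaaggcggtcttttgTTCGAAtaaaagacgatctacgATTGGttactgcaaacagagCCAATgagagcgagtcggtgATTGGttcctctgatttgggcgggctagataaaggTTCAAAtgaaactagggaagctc
Cdk1: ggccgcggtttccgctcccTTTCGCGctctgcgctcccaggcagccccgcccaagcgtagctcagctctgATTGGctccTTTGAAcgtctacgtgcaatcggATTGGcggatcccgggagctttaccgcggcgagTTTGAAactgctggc
Cdc20: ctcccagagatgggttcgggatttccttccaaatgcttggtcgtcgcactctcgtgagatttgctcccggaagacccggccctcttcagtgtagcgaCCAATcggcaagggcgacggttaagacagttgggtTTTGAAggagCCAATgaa
Kif11: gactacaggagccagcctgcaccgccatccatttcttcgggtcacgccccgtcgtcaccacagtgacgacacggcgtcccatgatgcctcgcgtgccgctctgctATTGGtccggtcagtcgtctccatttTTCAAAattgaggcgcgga

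An E2F motif was found in 8 of 14 replication genes (57.1%) and in 1 of 16 mitosis genes (6.25%) with a window, beside 13.9% of the 10110 tested genes that have a window of the same length. A CHR element was found in 12 of 16 mitosis genes (75.0%) and in 2 of 14 replication genes (14.3%), beside 1719 of the 10110 tested genes. CCAAT boxes were found in 14 of 16 mitosis genes and in 9 of 14 replication genes, beside 43.0% of the tested genes. All 12 mitosis genes with a CHR element also held a CCAAT box, and 8.37% of the tested genes held both. In wider lists described further on, an E2F motif was found in 21 of 33 other replication genes and a CHR element in 32 of 44 other mitosis genes. Mybl2 had no match to any of these letters in its window. A match describes letters in a window and does not show that a factor binds there. Only these exact letters were searched, so a window without a match may still hold a variant site.

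Among the replication genes, the subunits of the helicase ring had similar ratios of highest to lowest library. Mcm2, Mcm3, Mcm4, Mcm5, Mcm6 and Mcm7 encode this ring. Mcm2 had 7829, 4408 and 4909 in CD8 libraries, against 6229, 2766 and 4748 in CD4 libraries. Mcm6 had 10689, 5603 and 6411 in CD8 libraries, against 7612, 3912 and 6393 in CD4 libraries. The ratio of the highest to the lowest library lay between 2.57 and 2.83 for the 6 genes. Per kilobase of merged exons in GENCODE M21, their mean levels over the 6 libraries ran from 740.1 for Mcm2 to 1451 for Mcm6. These lengths include every annotated transcript form, and the annotation behind the counting is unknown here, so levels per kilobase are approximate.

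The genes that load and start the helicase differed more among themselves. Cdc6, the loading factor, had 3426, 1538 and 1879 in CD8 libraries, against 2512, 927 and 1760 in CD4 libraries, a ratio of 3.70 between the highest and the lowest library. Its partner Cdt1 had 2831, 2344 and 1937 in CD8 libraries, against 2232, 1362 and 2039 in CD4 libraries, a ratio of 2.08. Cdt1 varied less between libraries than Cdc6, and its lowest CD8 value, in CD8 387, lay below the values of CD4 385 and CD4 395. Gins2, a subunit of the active helicase, had 489, 486 and 383 in CD8 libraries, against 417, 236 and 386 in CD4 libraries, the narrowest spread of the 40 genes. Its values in CD8 389 and CD8 395 were nearly equal. Mcm10, which helps to activate the helicase, ranged from 959 to 2034 in CD8 and from 619.6 to 1311 in CD4.

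Genes of nucleotide supply showed some of the widest and some of the narrowest spreads. Rrm1 encodes the large subunit of ribonucleotide reductase, which makes deoxynucleotides, and had 12339, 5042 and 6368 in CD8 libraries, against 8021, 3136 and 5939.6 in CD4 libraries. Rrm2, the regulated small subunit, had 8689, 4244 and 4367 in CD8 libraries, against 5903, 2245 and 3934 in CD4 libraries. Both subunits differed by nearly the same factor between the highest and the lowest library, 3.93 for Rrm1 and 3.87 for Rrm2. Dut, which removes dUTP so that uracil is not built into DNA, had 3825, 3081 and 2472 in CD8 libraries, against 2906, 1657 and 2835 in CD4 libraries, a ratio of only 2.31. In Tyms, the thymidylate synthase gene, values ranged from 955 to 1680.2 in CD8 and from 607 to 1230.1 in CD4. Pcna, the sliding clamp of the polymerases, ranged from 4381 to 7789.6 in CD8 and from 3118 to 5936 in CD4, and had the highest mean level per kilobase of the 40 genes, 2085. Reads shared with processed copies of genes such as Pcna were not examined here.

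The E-type cyclins, which activate Cdk2 at the start of S phase, were among the 5 replication genes with the widest spread, beside Rrm1, Rrm2 and Cdc6. Ccne1 had 2565, 1665 and 1611 in CD8 libraries, against 1898, 744 and 1446 in CD4 libraries. Ccne2 had 874, 451 and 530.3 in CD8 libraries, against 653, 233 and 432 in CD4 libraries. Their ratios of highest to lowest library were 3.45 and 3.75, and in each the 3 CD8 values overlapped the CD4 values through CD4 385.

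Among the mitosis genes, Mki67, which encodes the Ki-67 protein that coats mitotic chromosomes and is the usual marker of dividing cells, had 30039.8, 12000.2 and 12475 in CD8 libraries, against 13615, 9613 and 11486 in CD4 libraries. CD8 389 stood apart: its value was 2.21 times that of CD4 385, while the other 5 libraries lay between 9613 and 13615. Top2a, the topoisomerase that untangles chromosomes, had 11646, 5239 and 6413 in CD8 libraries, against 8003, 3702 and 6127 in CD4 libraries, and its ratio between CD8 389 and CD4 385 was smaller, 1.46. Per kilobase, Mki67 had the highest mean level of the mitosis genes, 1478, and Cdc25c the lowest of the 40, 52.2.

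The cyclins and kinases that drive entry into mitosis followed the same order. Ccna2, cyclin A2, had 6107, 2940.2 and 2877 in CD8 libraries, against 3696, 1509 and 2921 in CD4 libraries. Ccnb1, cyclin B1, had 2535, 1120.3 and 1192 in CD8 libraries, against 1335, 626 and 1364 in CD4 libraries, and in this gene CD4 395 slightly exceeded CD4 385. Both cyclins had a ratio of 4.05 between highest and lowest library, the widest of the 40 genes. Cdk1, the kinase that binds these cyclins, ranged from 1338 to 2572 in CD8 and from 803 to 1657 in CD4. Cdc25c, a phosphatase that activates Cdk1, had 449.7, 265 and 184 in CD8 libraries, against 215, 176 and 250.1 in CD4 libraries. It was the mitosis gene with the narrowest spread, and its CD8 387 value was close to that of CD4 393. Plk1 and Aurka, kinases of spindle assembly, had ratios of 2.85 and 3.01. Aurkb, the kinase of the chromosomal passenger complex, had 1644, 1056 and 1016 in CD8 libraries, against 1189, 591 and 979 in CD4 libraries, with CD8 395, CD8 387 and CD4 395 within a narrow range.

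Genes of the spindle checkpoint and the kinetochore included those in which CD8 389 stood furthest above the other libraries. Bub1, a checkpoint kinase, had 1689, 729.8 and 860.1 in CD8 libraries, against 895, 435 and 742 in CD4 libraries. Its relative Bub1b ranged from 1175 to 2580.5 in CD8 and from 839 to 1807 in CD4. Cenpe, a kinesin of the kinetochore, had 2529, 1020.4 and 1098 in CD8 libraries, against 1121, 893 and 1109.8 in CD4 libraries. The 5 libraries other than CD8 389 lay close together in Cenpe. Cenpf, the gene of a large kinetochore protein, had 1850.5, 805 and 853 in CD8 libraries, against 806, 645 and 869 in CD4 libraries, with the other 5 libraries again close together. Cdc20 and Ube2c, which serve the complex that ends mitosis by degrading cyclin B, had ratios of highest to lowest library of 2.89 and 2.96.

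Motor and spindle genes and the 2 transcription factors also kept the order. Kif20a, a kinesin of cytokinesis, had 2414, 1118 and 1335 in CD8 libraries, against 1502, 712 and 1320.5 in CD4 libraries. Tpx2, which activates Aurora A on the spindle, had 3048, 1453 and 1473 in CD8 libraries, against 1942, 897 and 1639 in CD4 libraries. Kif11, the motor that pushes spindle poles apart, Nusap1, which bundles microtubules, Birc5, which encodes survivin, and Ccnb2, cyclin B2, had ratios of highest to lowest library of 3.34, 3.23, 3.27 and 2.98. Foxm1 had 1312, 699.6 and 788 in CD8 libraries, against 960.5, 540.5 and 662 in CD4 libraries. Mybl2 had 1576, 765 and 945 in CD8 libraries, against 1257, 612 and 865 in CD4 libraries. Both factors spread less than most of the mitosis genes, with ratios of 2.43 for Foxm1 and 2.58 for Mybl2.

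Replication and mitosis genes did not keep a fixed proportion. A score was taken as the mean of log2(normalised count + 1) over the genes of a list in 1 library. Relative to its mean over the 6 libraries, the replication score was 0.71, -0.08 and -0.01 in CD8, against 0.27, -0.82 and -0.07 in CD4. The mitosis score was 0.87, -0.07 and -0.12 in CD8, against 0.14, -0.79 and -0.04 in CD4. Mitosis genes thus stood further above their mean than replication genes in CD8 389 and less far above it in CD4 385. The sum of mitosis genes over the sum of replication genes was 0.914, 0.780 and 0.738 in CD8, against 0.713, 0.835 and 0.770 in CD4. Without Mki67 and Top2a, which take a large part of the mitosis sum, the ratio was 0.478, 0.454 and 0.406 in CD8, against 0.403, 0.428 and 0.447 in CD4. In both forms CD8 389 was the highest library and CD4 385 the lowest. The score difference, mitosis minus replication, averaged -0.80 ± 0.14 in CD8 and -0.84 ± 0.10 in CD4 (SD, n = 3 each), so the groups differed by less than the spread between libraries. These scores compare libraries, not the levels of mitosis and replication genes, since they are not per length.

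Gene by gene, the ratio of CD8 389 to CD4 385 ran from 1.33 (Aurka) to 2.29 (Cenpf) over the 21 mitosis genes, with a median of 1.56, and from 1.17 (Gins2) to 1.55 (Mcm10) over the 17 replication genes, with a median of 1.34. In this pair, which has the highest and the lowest mitosis to replication ratio of the 6 libraries, 13 mitosis genes lay above the highest replication gene. The 6 highest ratios belonged to Cenpf, Cenpe, Mki67, Cdc25c, Ccnb1 and Bub1, while other mitosis genes, such as Aurkb (1.38) and Plk1 (1.48), lay within the range of the replication genes. Cenpf, Mki67 and Cenpe are also among the 5 longest of the 40 genes by merged exons, at 15433, 10061 and 8620 bases. The long genes Rrm1 and Top2a, at 11012 and 9013 bases, had ratios of 1.54 and 1.46. Among replication genes, Rrm1 and Mcm10 (7692 bases) were the longest and had the highest ratios, 1.54 and 1.55. The next longest replication gene, Mcm2 (6956 bases), had 1.26. The part of transcript length was not tested. Other pairs separated the gene groups less. Between CD8 389 and CD4 393, 2 mitosis genes lay above the highest replication gene, with medians of 3.12 for mitosis and 2.81 for replication. Between CD8 389 and CD8 395, also 2 lay above it and 9 of the 21 lay below the replication median, with medians of 2.08 for mitosis and 1.78 for replication. These ratios compare single libraries and have no replicate check.

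**Figure D2:**
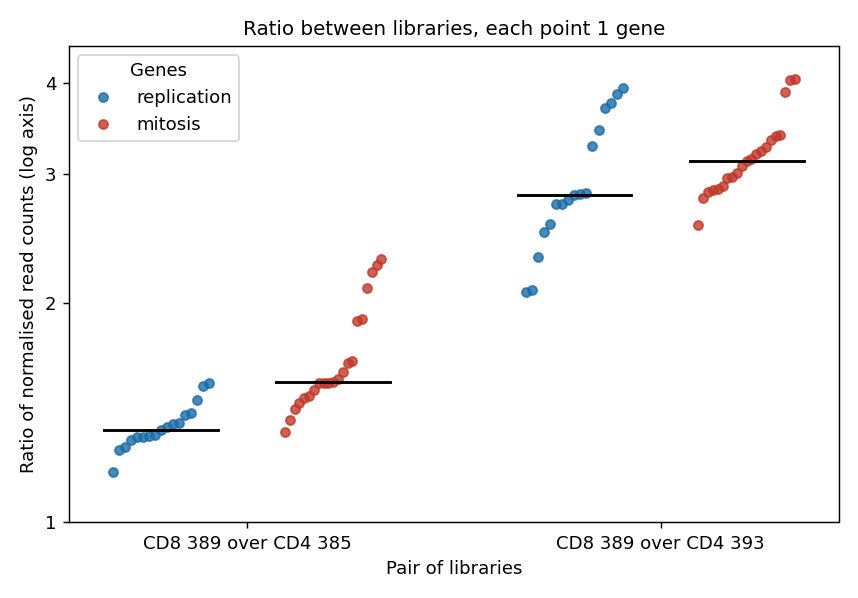
Ratio of normalised read counts between 2 libraries (log axis), with 1 point per gene and a bar at the median, for 17 replication and 21 mitosis genes. Against CD4 385 the mitosis genes sit higher (median 1.56) than the replication genes (median 1.34), and against CD4 393 the 2 sets overlap.

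The comparison of CD8 with CD4 libraries, the only one the labels allow, called none of the 40 genes. The test was limma on log2(normalised count + 1) over all 13877 genes, with Benjamini-Hochberg adjustment and a call at an adjusted p under 0.05. It called 68 genes in all (0.49% of those tested), 0.281% higher and 0.209% lower in CD8. At an unadjusted p under 0.05 there were also 0 of the 40 genes, where 5.82% of all genes passed. EdgeR and DESeq2 on the recovered reads called 0 of the 40 as well, and 0.425% and 2.3% of all genes. Nothing beyond the numbers says that the libraries came from separate mice, so p-values measure only the spread between these libraries. None of the 40 had values that did not overlap between the groups, beside 10.2% of all genes tested.

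All 40 point estimates lay above 0, beside 55.6% of all genes tested, with log2 fold changes (CD8 minus CD4) of 0.26 to 0.63 and limma adjusted p of 0.946 to 0.948. The median was 0.40 for replication genes and 0.45 for mitosis genes, beside 0.04 over all genes. Since the 40 genes moved together over the libraries, their shared sign is not 40 separate observations. Bub1 had the highest estimate (log2 fold change 0.63, SE 0.37, 95% interval -0.25 to 1.50), with 1093 ± 521 over CD8 libraries and 690.3 ± 234 over CD4 libraries (SD, n = 3 each). Mybl2 had the lowest (log2 fold change 0.26, SE 0.34, 95% interval -0.53 to 1.05), with 1095 ± 426 over CD8 libraries and 911 ± 325 over CD4 libraries. Mki67 averaged 18172 ± 10281 over CD8 libraries and 11571 ± 2002 over CD4 libraries (log2 fold change 0.53, SE 0.37, 95% interval -0.34 to 1.39). All 40 intervals included 0. The lowest bound of any was -0.55, in Cdc6, the highest was 1.50, in Bub1, and other genes had narrower intervals, such as Cdt1 (95% interval -0.19 to 0.89). The estimates leaned on the libraries at both ends of the order: without CD8 389 the median over the 40 genes was 0.12, and without CD4 393 it was 0.13, against 0.43 with all 6 libraries. The shared sign also depended on the fit. With estimated library weights in limma the median was 0.097 and 7 of the 40 lay below 0. With the erythroid score of each library as a covariate 12 lay below 0, with the T cell score 27, and under scaling to the erythroid genes 23.

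**Figure D3:**
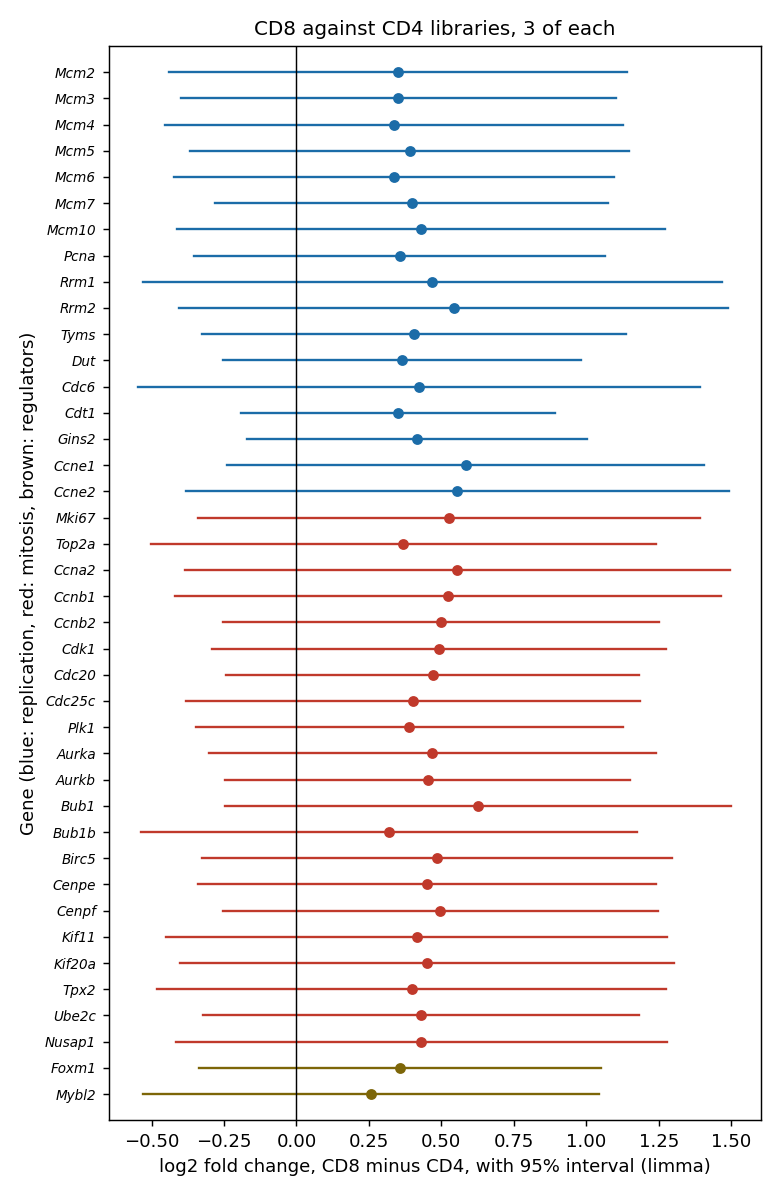
Log2 fold change of each of the 40 genes (rows), CD8 minus CD4, as a point with its 95% interval from limma over 3 libraries of each group. All 40 points lie right of 0, between 0.26 and 0.63, and all 40 intervals cross 0.

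Set beside other genes, the 40 followed most of the erythroid genes and ran opposite to the T cell genes across libraries. The erythroid score relative to its mean was 0.81, -0.10 and -0.07 in CD8, against 0.40, -0.77 and -0.29 in CD4, highest in CD8 389 and lowest in CD4 393 like the replication and mitosis scores. The T cell score was -1.33, 0.30 and -0.07 in CD8, against -0.16, 0.79 and 0.47 in CD4, lowest in CD8 389 and highest in CD4 393. Of the 35 erythroid genes, 32 were highest in CD8 389 and 27 lowest in CD4 393. Among those that departed, Hba-a1, Hba-a2, Hbb-bs and Hbb-bt, which encode haemoglobin chains, were lowest in CD4 395. Hba-a2 and Hbb-bs were highest in CD8 395. Hbb-bs had 6026, 6580 and 3277 in CD8 libraries, against 5068, 3519 and 2453 in CD4 libraries. The haemoglobin genes are named here after their values were seen. Klf1, the erythroid transcription factor, had 3409.5, 2255 and 2334 in CD8 libraries, against 2881, 1117 and 2298 in CD4 libraries. Tfrc, the transferrin receptor, which dividing cells of other types carry too, had 13737, 4937 and 7460.3 in CD8 libraries, against 8871, 3314 and 6655 in CD4 libraries. Car2 and Car1, carbonic anhydrases of red cells, had the highest mean values of the list. Car2 had 36719, 16840.4 and 19228 in CD8 libraries, against 24816, 8981 and 17345 in CD4 libraries. Car1 had 23650.1, 16967 and 16048 in CD8 libraries, against 19341, 11018 and 20352 in CD4 libraries, and its highest library was CD8 389 by a small margin over CD4 395. All 19 T cell genes were lowest in CD8 389, and 18 were highest in CD4 393, beside 26.4% and 23.7% of all genes tested. Cd3e, a chain of the T cell receptor complex, had 1022, 3074 and 2295 in CD8 libraries, against 1836, 3343 and 2786 in CD4 libraries. Lck, the kinase that acts next to it, had 1839, 6252 and 4844 in CD8 libraries, against 3711, 6643 and 5608 in CD4 libraries. Tcf7, a transcription factor of T cells, had 3446, 10222 and 7960.4 in CD8 libraries, against 6378, 14262 and 11811 in CD4 libraries. CD8 389 stood at less than any other library in all of these genes. Of the 35 erythroid genes, limma, edgeR and DESeq2 called 0, with 0 at an unadjusted p under 0.05 in each. Of the 19 T cell genes, limma and edgeR called 0, with 3 at an unadjusted p under 0.05 in each, and DESeq2 called 1, Cd28, a costimulatory receptor named here after its values were seen.

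**Figure D4:**
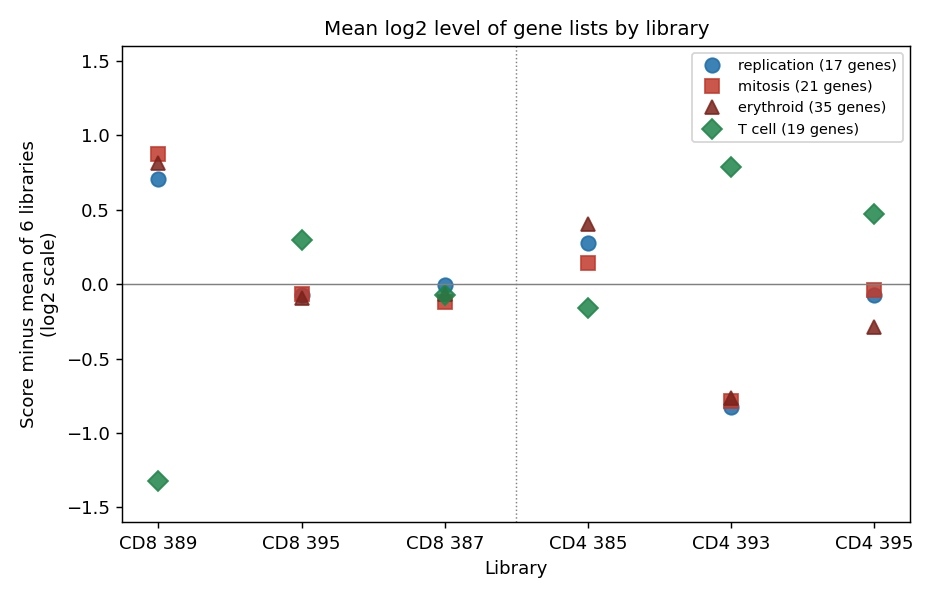
Score of 4 gene lists in each library (CD8 left of CD4), as the mean of log2(normalised count + 1) minus the mean over the 6 libraries. Replication, mitosis and erythroid points sit together at the top in CD8 389 and at the bottom in CD4 393, where the T cell points take the opposite ends.

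The ratio of the replication sum to the erythroid sum varied little, at 0.429, 0.468 and 0.471 in CD8, against 0.435, 0.467 and 0.487 in CD4. That of the mitosis sum to the erythroid sum was 0.392, 0.365 and 0.348 in CD8, against 0.310, 0.389 and 0.375 in CD4. Against the T cell sum the replication ratio was 4.75, 0.823 and 1.17 in CD8, against 1.63, 0.390 and 0.800 in CD4. When each library was rescaled to its erythroid genes, the replication score varied 1.27-fold and the mitosis score 1.42-fold between the highest and lowest library, compared with 2.89-fold and 3.16-fold under the deposited scaling. CD4 395 was then the highest and CD4 385 the lowest library for both scores. Under that scaling only 3 of the 40 genes were highest in CD8 389 and 7 lowest in CD4 393, and the median log2 fold change over the 40 was -0.0079, while the median over all genes moved to -0.39. Rescaling to the T cell genes widened the ranges to 12.5-fold for replication and 13.7-fold for mitosis, with a median of 1.16 over the 40 genes and 0.77 over all genes. Under TMM scaling all 40 genes kept both ends of the order. Which cells carried the transcripts of the 40 genes was not tested.

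**Figure D5:**
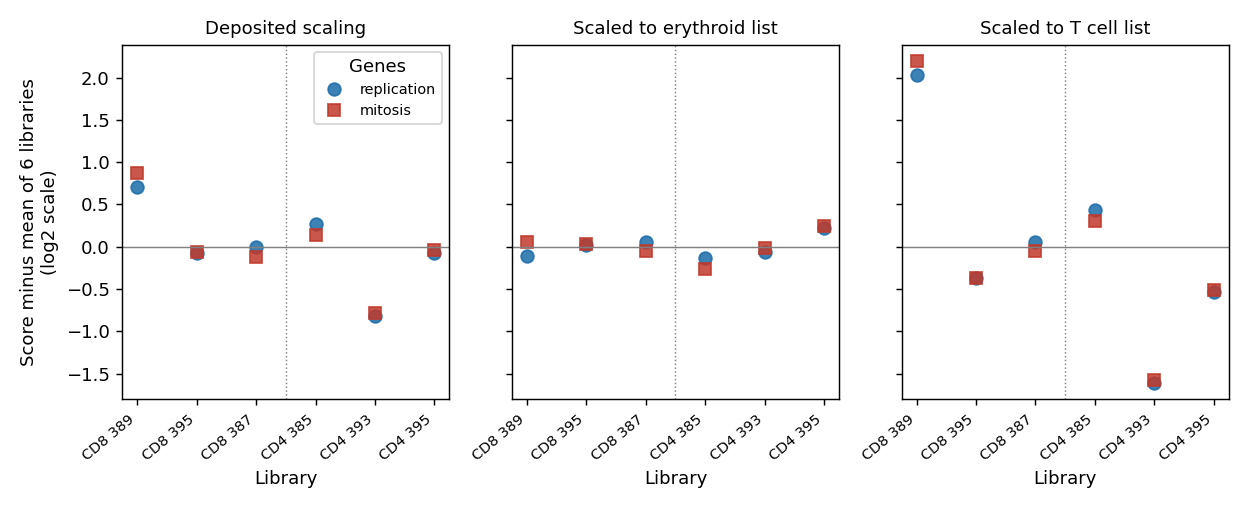
Replication and mitosis scores in each library (CD8 left of CD4), minus their mean over the 6 libraries, on a log2 scale under 3 scalings of the same values. The points nearly close up when the libraries are scaled to erythroid genes (ranges of 1.27-fold and 1.42-fold) and spread widely when they are scaled to T cell genes (12.5-fold and 13.7-fold).

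No other marker list had its highest sum in CD8 389. B cell genes summed to between 1042 and 2212 in CD8 libraries and between 1570 and 2466 in CD4 libraries, and their score was lowest in CD8 389 and highest in CD4 393, as for T cells. Germinal centre genes, a list of dividing B cells, summed to between 675 and 949 in CD8 libraries and between 604 and 1198 in CD4 libraries, and of 7 only Mybl1 was highest in CD8 389. Limma called 1 of the 7, Gcsam, higher in CD8. Only 3 of the 7 estimates lay above 0, and the median log2 fold change was -0.14. Genes of myeloid and erythroid progenitors summed to between 8779 and 15380.3 in CD8 libraries and between 8017 and 16588 in CD4 libraries. Their sum was highest in CD4 385, next in CD8 389 and lowest in CD4 393. Their score was highest in CD4 385 (0.87 above its mean) and next in CD8 389 (0.66 above). The score was lowest in CD4 395, where 10 of the 15 had their lowest value. Neutrophil genes summed to between 645 and 3629.9 in CD8 libraries and between 118 and 7013 in CD4 libraries, and 3 of the 13 had no reads in CD4 395 and 1 had none in CD4 393. Macrophage and monocyte genes summed to between 12479 and 34814 in CD8 libraries and between 8090.1 and 42022 in CD4 libraries. Plasma cell genes, of which 5 of 9 were lowest in CD8 389, summed to between 10951 and 16648 in CD8 libraries and between 12986 and 16455 in CD4 libraries. Dendritic cell genes summed to between 25972 and 38693 in CD8 libraries and between 4276 and 12789 in CD4 libraries, without overlap, and limma called 2 of 12, Xcr1 and Tlr11, both higher in CD8. Natural killer cell genes summed to between 1836 and 5187 in CD8 libraries and between 950.2 and 2898 in CD4 libraries. Genes of T cell activation summed to between 3969 and 5508 in CD8 libraries and between 6813 and 11288 in CD4 libraries, with 12 of 17 lowest in CD8 389. Limma called 3 of the 16 activation genes tested, Il2ra, Ctla4 and Pdcd1, all lower in CD8. The estimates of the 16 also included 3 above 0, the highest at a log2 fold change of 3.22, none of them called. The part of any of these cells in the values of the 40 genes was not tested.

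Beyond the 40, most genes of a wider cell cycle set had the same libraries at both ends. Of 40 other replication genes, 40 were highest in CD8 389 and 39 lowest in CD4 393. Dnmt1, which copies DNA methylation, had the highest mean value of this list, with 7141, 3979 and 5179 in CD8 libraries, against 6288, 3682 and 5088 in CD4 libraries. Uhrf1, which guides it to newly made DNA, had 5798, 2841 and 3328 in CD8 libraries, against 4391, 1893 and 2894 in CD4 libraries. Of 50 other mitosis genes, 48 were highest in CD8 389 and 47 lowest in CD4 393. Ncapd2, a condensin subunit, had 7213, 3797 and 4136 in CD8 libraries, against 5128, 2577 and 3938 in CD4 libraries. Smc4, the core condensin subunit, had 8063, 6852 and 5620.2 in CD8 libraries, against 4546, 7229.9 and 6631 in CD4 libraries, and in this gene CD4 393 was the second highest library and CD4 385 the lowest. Pttg1, which encodes securin, and Cenpm, a centromere protein gene, were the 2 whose highest library was another one, CD8 395. Pttg1 had 267, 436 and 305 in CD8 libraries, against 278, 406 and 287 in CD4 libraries, and its lowest library was CD8 389. Of these 90 genes limma and edgeR called 0, with 1 at an unadjusted p under 0.05 in each, and DESeq2 called 1, beside the shares of all genes given above. In each case that gene was Racgap1, a cytokinesis regulator, with 2099, 1491 and 1713 in CD8 libraries, against 1206, 656 and 904 in CD4 libraries. Its CD8 and CD4 values did not overlap (log2 fold change 0.97, SE 0.25, limma adjusted p = 0.242), and the only other such gene among the 90 was Kif18a, a mitotic kinesin (log2 fold change 0.67, SE 0.33). Pttg1, Cenpm, Racgap1 and Kif18a are named here after their values were seen.

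Control genes of the cycle varied less as a list, though not in every gene. The score over 26 cyclin D, Rb and E2F genes had a 1.62-fold range between libraries. Of the 26, 19 were highest in CD8 389 and 3 were lowest there. For single genes the ratio of highest to lowest library ran from 1.26 to 4.42, with a median of 2.05, against 2.97 for the 40. Ccnd3, cyclin D3, had 6502, 4248 and 4158 in CD8 libraries, against 5512, 3087 and 3491 in CD4 libraries. Its partner Cdk4 had 5018, 4056 and 4011 in CD8 libraries, against 4171, 2599.8 and 4025 in CD4 libraries. Cyclin-dependent kinase inhibitors and genes of quiescence went the other way in part: of 16, 8 were lowest in CD8 389 and 2 were highest there. The 2 of them highest in CD8 389, Cdkn2c and Cdkn3, were named after their values were seen. Cdkn2c, an inhibitor of Cdk4 and Cdk6, had 700.4, 457 and 380.1 in CD8 libraries, against 522, 242 and 406 in CD4 libraries. Cdkn3, a phosphatase of Cdk1 and Cdk2, had 291, 157 and 116 in CD8 libraries, against 145, 81.3 and 115 in CD4 libraries. Btg1, an antiproliferative gene of resting lymphocytes, had 2902, 4988 and 4790.3 in CD8 libraries, against 4243, 7067 and 5171 in CD4 libraries. Its relative Btg2 had 1235, 1749 and 1643 in CD8 libraries, against 1601, 1965 and 1544 in CD4 libraries. Btg1 was lowest in CD8 389 and highest in CD4 393, the reverse of the 40 genes. Limma, edgeR and DESeq2 called 0 of the 26 control genes and 0 of the 13 tested inhibitor and quiescence genes, with 0 and 1 at an unadjusted p under 0.05 in each tool. The 1 was Tob1, another antiproliferative gene, named after its values were seen (log2 fold change -0.60, SE 0.24).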

How the data were processed

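RNA from 6 libraries of sorted mouse spleen cells (3 CD8 and 3 CD4) was sequenced after poly(A) selection with a stranded kit, per the labels' protocols. The deposited signal values are gene read counts that the authors divided by a size factor for each library. Per the submitters' processing notes, the tools were DESeq2, featureCounts 2.0 and STAR 2.7.5c and the build was GRCm39, with no role stated. The annotation is not given in the sources used here, nor is the strand used in counting, so genes that overlap on opposite strands or share reads with near-identical copies are uncertain. The table holds 17832 genes, each with at least 11 reads over the libraries. The deposited signal could be turned back into reads: 100% of the values in each library were whole multiples of 1 read within 0.001 reads. No 2 libraries agreed within sampling noise (lowest chi-square per degree of freedom 25.4).

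Libraries were grouped by their labels. Values were taken as log2(value + 1), which understates changes of genes with low values. The 13877 genes that reached 10 in 3 or more libraries were tested with limma 3.58.1 (with a trend, no covariates) in R 4.3.3, with Benjamini-Hochberg adjustment over all of them. On the recovered reads edgeR 4.0.16 (quasi-likelihood) called 59 genes and DESeq2 1.42.0 called 319. On simulated counts for this comparison (13672 genes), limma recovered 23% of 2-fold and 98% of 4-fold changes with 4 false calls. The simulation gave every gene the same spread beyond counting error and drew each gene independently. The shared movement of the 40 genes over the libraries is not part of it. Counting error sets little of the spread, since each of the 40 genes had at least 158 reads in every library.

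The 40 genes and all gene lists were chosen with earlier results of these data known. Values in all libraries are given for Mki67, Top2a, Foxm1 and Mybl2, for called or non-overlapping members (there were none), for members whose highest library was not the usual one, and for the 5 widest and 3 narrowest spreads in each of the replication and mitosis groups. Those of Mcm2, Mcm6 and Cenpf were added after they were seen. Of other lists, up to 4 called genes a direction or the 2 with the highest means are named, with Klf1, Tfrc, Cd3e and Lck, and 1 further gene of the rule is not reported here. In lists with no result on the members beyond their sums, genes are not named. Exon lengths come from GENCODE M21, an older annotation than the build of the files, and promoters from RefSeq, GRCm38.p6. Alternatives were other pseudocounts, filters, scalings, tools, covariates and the removal of each library.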

Additional observations from a re-analysis of the deposited data

How the results depend on the processing

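None of the 40 genes was called under any of the 19 alternatives, the removal of each library included (0 to 0). Without CD4 385, 2 of the 40 passed an unadjusted p under 0.05. The score differences between CD8 and CD4 moved by less than the spread between libraries, except under scaling to the T cell genes. That scaling gave 1.15 for replication and 1.19 for mitosis, against 0.42 and 0.46 under the deposited scaling. Scaling to the erythroid genes gave -0.019 for replication and 0.025 for mitosis. With each library left out in turn, the replication difference ran from 0.11 to 0.66, the mitosis difference from 0.14 to 0.64, and mitosis minus replication from -0.028 to 0.11. Among these removals, the lowest replication difference came without CD4 393 and the lowest mitosis difference without CD8 389. Scaling to the erythroid genes left 3 of the 40 highest in CD8 389 and 7 lowest in CD4 393. This check and the order without CD8 389 were chosen after seeing the data.

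Of the 40 log2 fold changes, 27 lay below 0 with the T cell score as a covariate, 12 with the erythroid score as a covariate, 23 under scaling to the erythroid genes and 7 with estimated library weights. Among Mki67, Top2a, Foxm1, Mybl2, Ccne1 and Bub1, these changed sign. With the T cell score as a covariate they were -0.042 for Mki67, -0.21 for Top2a, -0.11 for Foxm1 and -0.28 for Mybl2. With the erythroid score as a covariate they were -0.071 for Top2a and -0.15 for Mybl2. Under scaling to the erythroid genes they were -0.065 for Top2a, -0.076 for Foxm1 and -0.18 for Mybl2, where the median of all genes moved to -0.39. Without CD8 389, Mybl2 was at -0.038. The cause was not tested. Leaving out each library gave 0.095 to 0.76 for Mki67, 0.034 to 0.62 for Top2a, 0.084 to 0.58 for Foxm1, -0.038 to 0.52 for Mybl2, 0.20 to 0.87 for Ccne1 and 0.26 to 0.87 for Bub1.

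No paired analysis was possible because the groups share only 1 number, 395, and the labels do not say that it marks a mouse. With 3 libraries a group, a 2-fold change was mostly missed on simulated counts, which limits what the absence of calls can show.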
